A study of Mus musculus with 32 samples.

Results

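The 43 genes examined here act from the G1/S transition of the cell cycle to the copying of DNA. They were taken by symbol from a fixed list, chosen with earlier results of these data known. All 43 were found among the 23337 genes of the deposited count table. The list holds 10 genes of origin licensing (Orc1, Orc6, Cdc6, Cdt1 and Mcm2 to Mcm7), 4 of helicase activation (Mcm10, Cdc45, Gins1 and Gins2), 11 polymerase, clamp and clamp loader subunits (Pola1, Pola2, Prim1, Prim2, Pold1, Pole, Pcna and Rfc2 to Rfc5) and 2 genes that finish Okazaki fragments (Fen1 and Lig1). It also holds 5 nucleotide enzymes (Rrm1, Rrm2, Tyms, Tk1 and Dut), 4 cyclin E and E2F genes (Ccne1, Ccne2, E2f1 and E2f2), 4 genes of chromatin and histone supply (Uhrf1, Chaf1a, Chaf1b and Slbp) and 3 of DNA repair (Ung, Exo1 and Brca1). All are protein coding in the annotation used here.

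RNA had been sequenced from 32 libraries of cells sorted out of gliomas, which were started in XFM mice, whose alleles the labels do not give, by injecting DF-1 cells carrying PDGFB, a ligand of the PDGF receptors, into the brain at 5 to 6 weeks of age. The series asks about resistance to inhibition of CSF-1R, the receptor on which macrophages depend, and BLZ945 is an inhibitor of that receptor. Vehicle mice received the carrier, while Endpoint mice, with tumours labelled dormant, and Rebound mice received BLZ945, each day from a tumour volume of 20 to 40 cubic millimetres until symptoms or an age of 26 weeks. TAM libraries (tumour-associated macrophages) were sorted as CD11b+ Gr1- cells and TC libraries (tumour cells) as PDGFRA+ cells of the same suspensions. Each sort had 5 Vehicle mice (54359, 54363, 57098, 57682 and 64247) and 6 Endpoint mice (49823, 49825, 49830, 49831, 49843 and 49845). TAM Rebound had 5 mice (49041, 49059, 49827, 49834 and 49849), and TC Rebound had the same with 49692 in place of 49834.

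Before S phase, the origin recognition complex, CDC6 and CDT1 load the ring of MCM2 to MCM7 onto DNA, and CDC45 with the GINS complex later turns that ring into a moving helicase. Cyclin E with its kinase, and E2F factors released from the retinoblastoma protein, drive entry into S phase, and many replication genes are known E2F targets. Macrophages and microglia can divide inside a glioma, so these genes can report proliferation in either sort.

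Because many of these genes are E2F targets, the RefSeq promoter table (GRCm38.p6, 250 bases before to 50 bases after each start) was searched for 4 E2F-type motifs, TTTCCCGC, TTTCGCGC, TTTGCCGC and TTTGGCGC, on both strands with overlapping matches allowed. Of the 43 genes, 35 had a window there, and 13 of their 41 windows (31.7%) held a match, against 2.26% of all 32851 windows of the table. By gene, 13 of 35 (37.1%) held one, against 2.61% of 27025 genes. The 160 bases upstream of the start are shown, 5′ to 3′ on the strand of the gene, with matches in capitals. Cdc6, Mcm5, Orc1 and Pola1 are shown as genes with a match that fell in TC libraries at Endpoint, Mcm6 as a gene with 3 matches that was not called there, and Rrm2 as a gene that fell without a match.
Cdc6 (chr11:98907991-98908150, plus strand): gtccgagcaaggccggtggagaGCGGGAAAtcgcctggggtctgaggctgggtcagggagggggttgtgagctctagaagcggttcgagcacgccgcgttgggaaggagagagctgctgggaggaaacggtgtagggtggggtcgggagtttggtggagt
Mcm5 (chr8:75109349-75109508, plus strand): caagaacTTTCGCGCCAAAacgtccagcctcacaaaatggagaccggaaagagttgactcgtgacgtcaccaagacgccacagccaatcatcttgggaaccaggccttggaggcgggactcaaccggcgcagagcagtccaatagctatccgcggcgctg
Orc1 (chr4:108579294-108579453, plus strand): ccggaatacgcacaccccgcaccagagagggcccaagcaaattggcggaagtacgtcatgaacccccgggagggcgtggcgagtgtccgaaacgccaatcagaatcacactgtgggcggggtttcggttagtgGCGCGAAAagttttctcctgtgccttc
Pola1 (chrX:93632156-93632315, minus strand): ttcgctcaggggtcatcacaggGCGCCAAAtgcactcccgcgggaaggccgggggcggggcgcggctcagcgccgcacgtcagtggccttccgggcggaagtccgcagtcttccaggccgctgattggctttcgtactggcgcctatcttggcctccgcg
Mcm6 (chr1:128359706-128359865, minus strand): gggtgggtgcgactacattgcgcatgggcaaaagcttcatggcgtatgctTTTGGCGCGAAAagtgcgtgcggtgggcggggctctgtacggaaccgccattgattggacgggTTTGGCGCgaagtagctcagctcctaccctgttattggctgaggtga
Rrm2 (chr12:24708094-24708253, plus strand): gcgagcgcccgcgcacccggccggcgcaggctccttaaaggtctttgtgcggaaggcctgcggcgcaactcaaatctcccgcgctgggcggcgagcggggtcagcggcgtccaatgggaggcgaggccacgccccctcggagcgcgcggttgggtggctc
In Mcm5 and Mcm6 neighbouring matches on opposite strands overlap and form 1 run of capitals. A match is a stretch of letters and not a measured binding site, and its absence says only that these letters are not in the window.

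Total counts were 25556830 to 30383148 in TAM Vehicle, 9543888 to 15789460 in TAM Endpoint, 15352174 to 19561440 in TAM Rebound, 13126801 to 22989777 in TC Vehicle, 4180176 to 14029216 in TC Endpoint and 10501264 to 16460126 in TC Rebound. Every gene of the list had a count in every library except TC Endpoint 49830, where 41 did, and all 43 passed the filter on low counts in each fit. All counts of the 22 Endpoint and Rebound libraries were even numbers, while the 10 Vehicle libraries held odd and even ones, so a difference in counting between Vehicle and BLZ945 libraries cannot be told apart from the treatment. Markers of other cells set some libraries apart. In TC Endpoint libraries other than 49843, 12 tumour cell and progenitor markers averaged 2.42 to 3.57 log2 CPM (counts scaled to library size), against 6.69 to 7.57 in TC Vehicle. In the same libraries the lineage factor Olig2 was 0 to 1.79 CPM (scaled over both sorts). Pdgfra, the gene of the sorted marker, was 45.5 to 104 CPM there, against 371 to 3049 CPM in TC Vehicle on the same scale. T and NK cell markers averaged above 2 log2 CPM in TC Endpoint 49823, 49825, 49830 and 49831 (8.02 to 8.49), TC Rebound 49827 (7.79) and TAM Rebound 49041, 49059 and 49849 (2.23 to 3.86). Choroid plexus and ependymal markers averaged 3.66 to 7.60 log2 CPM in TC Endpoint and -1.38 to 1.19 in TC Vehicle. For the whole list of 43, counts of calls that use libraries with T and NK markers above 2 log2 CPM are given with them. Where such a count changed, it is also given with those left out. Counts by role within the 43 are given with all libraries only.

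In Vehicle tumours the replication genes were measured in both sorts. The 43 genes took 0.22 to 0.461% of all counts in TC Vehicle and 0.0811 to 0.226% in TAM Vehicle. Per exon length, the most abundant of the 43 in TC Vehicle was Rrm2, the small subunit of ribonucleotide reductase, at a level of 126 ± 44.8 RPKM (the CPM level per kilobase of exon, SD, n = 5), followed by the clamp loader subunit Rfc4 at 55.5 ± 10.2. Orc6, Mcm5 and Pcna came next at 41.9 ± 8.29, 41.6 ± 16.9 and 41.5 ± 8.26 RPKM and did not differ beyond their spread. This order depends on the merged exon length, 11012 bases for Rrm1 and 1533 for Rfc4. Rrm1, at 202 to 343 CPM against 66.3 to 107 CPM for Rfc4, came only at rank 12 per length. TAM Vehicle had another order. There Mcm3, a subunit of the MCM ring, led at 74.0 ± 9.99 RPKM, and the flap endonuclease Fen1 at 51.5 ± 13.9 and Rrm2 at 49.6 ± 20.0 lay within each other's spread. Mcm3 was also first of the 43 in TAM Endpoint (55.9 ± 25.2 RPKM, n = 6) and TAM Rebound (44.2 ± 12.5, n = 5). Rrm2 was first in TC Rebound (152 ± 66.4).

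Replication genes were lower in TC libraries, the PDGFRA+ sort, at Endpoint. In TC Endpoint against TC Vehicle, 30 of the 43 genes were lower at an edgeR adjusted p below 0.05 and 0 were higher, with 14.8% of all 14985 genes tested called lower and 14% called higher. The median log2 fold change of the list was -1.39, a 2.62-fold lower level, against 0.03 over all genes tested. In 12 of the 43, every Endpoint library lay below every Vehicle library, which held for 7.43% of all genes. In bulk libraries, fewer cells of a type and less RNA per cell cannot be told apart. E2f1 (0.34) and Slbp (0.41), which binds histone mRNA, had positive log2 fold changes, and neither passed the test.

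Origin licensing genes were lower in 7 of 10. This share and those of the other roles stand beside 14.8% of all genes tested. Mcm5, a subunit of the replicative helicase, stood at 97.5, 103, 249, 218 and 162 CPM in the 5 Vehicle libraries and between 23.6 and 94.4 CPM (median 45.3) in the 6 Endpoint libraries. The groups did not overlap, and the log2 fold change was -1.69 (SE 0.383, adjusted p = 0.00536). Cdc6, a loader of the MCM ring, was 10.4, 49.8, 74.7, 48.8 and 32.4 CPM in Vehicle and 2.78 to 14.3 CPM (median 8.99) at Endpoint. The groups overlapped because Vehicle 54359 was low, and the fold change was -2.26 (SE 0.478, adjusted p = 0.00357). Orc6, a subunit of the origin recognition complex, fell from 79.1 to 136 CPM to 23.1 to 55.0 CPM (-1.59, SE 0.250, adjusted p = 0.000806). Orc1, the ATPase subunit of that complex, was 5.27 to 15.9 CPM in Vehicle and 0.214 to 3.15 CPM at Endpoint (-2.64, SE 0.659, adjusted p = 0.00888). In both the groups were apart. Cdt1, which works with CDC6 in loading, was not called. It measured 24.1, 22.3, 12.5, 11.2 and 28.0 CPM in Vehicle and 3.21 to 35.5 CPM (median 15.6) at Endpoint, a log2 fold change of -0.21 with a 95% interval from -1.14 to 0.72. Mcm4 and Mcm6 were the other licensing genes without a call.

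All 4 helicase activation genes were lower. Cdc45, which joins the MCM ring when an origin fires, was 35.5, 19.7, 45.4, 38.0 and 59.0 CPM in TC Vehicle and 1.71 to 28.6 CPM (median 5.56) at Endpoint (log2 fold change -2.03, SE 0.576, adjusted p = 0.0163). Of the Endpoint libraries 1, 49843 at 28.6 CPM, reached into the Vehicle range.

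Of the polymerase, clamp and clamp loader genes 8 of 11 were lower. Rfc4, a subunit of the loader that places the clamp on DNA, had the smallest adjusted p of the list. It was 66.3, 93.1, 82.6, 76.4 and 107 CPM in TC Vehicle and 18.7 to 37.6 CPM (median 23.0) at Endpoint, with no overlap (log2 fold change -1.79, SE 0.243, adjusted p = 0.000423). Prim1, the catalytic subunit of primase, was 47.9 to 72.2 CPM in Vehicle and 16.8 to 44.5 CPM at Endpoint, also apart (-1.39, SE 0.283, adjusted p = 0.00286). Pcna, the sliding clamp itself, was 78.6, 87.1, 113, 92.0 and 127 CPM in Vehicle and 42.2 to 81.1 CPM (median 45.3) at Endpoint (-0.97, SE 0.217, adjusted p = 0.00468). Its highest Endpoint value, of mouse 49843, overlapped Vehicle. Pola1, the catalytic subunit of polymerase alpha, was 49.1, 45.4, 46.4, 49.8 and 40.2 CPM in Vehicle, a narrow range, and 10.1 to 45.1 CPM (median 16.7) at Endpoint (-1.10, SE 0.353, adjusted p = 0.0288). Pola2, Pold1 and Pole, other polymerase subunits, had no call. Of the Okazaki fragment genes 1 of 2 was lower, the ligase gene Lig1, and Fen1 was not called.

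The 5 nucleotide enzymes were all lower. Rrm2 stood at 198, 280, 528, 350 and 393 CPM in TC Vehicle and at 12.4 to 222 CPM (median 38.8) at Endpoint (log2 fold change -2.39, SE 0.598, adjusted p = 0.00927). The highest Endpoint value again came from mouse 49843, and the next was 64.5 CPM. Tk1, the thymidine kinase of the salvage pathway, was 34.2, 37.1, 53.6, 33.8 and 51.2 CPM in Vehicle and 0.214 to 22.8 CPM (median 8.06) at Endpoint, without overlap (-2.19, SE 0.595, adjusted p = 0.0135). Tyms, thymidylate synthase, went from 58.0 to 88.2 CPM in Vehicle to 13.1 to 41.9 CPM at Endpoint, without overlap (-1.46, SE 0.284, adjusted p = 0.00229).

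Of the cyclin E and E2F genes 2 of 4 were lower, and both were cyclins. Ccne1, a cyclin that activates CDK2, was 8.24, 13.4, 10.8, 7.30 and 15.7 CPM in TC Vehicle and 0 to 3.71 CPM (median 2.23) at Endpoint (log2 fold change -2.60, SE 0.731, adjusted p = 0.0158). Ccne2, its paralog, was 6.08, 7.11, 32.4, 19.4 and 16.2 CPM in Vehicle and 0.379 to 10.6 CPM (median 2.45) at Endpoint (-2.30, SE 0.674, adjusted p = 0.0192). Ccne1 had no overlap between the groups, and Ccne2 overlapped through 49843. E2f1, an activating E2F factor, was 10.7, 4.79, 5.92, 5.64 and 12 CPM in Vehicle and 2.48 to 18.6 CPM (median 8.73) at Endpoint. Its groups overlapped, with a 95% interval of the log2 fold change from -0.73 to 1.41. E2f2, another activating E2F, had no call.

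Of the genes of chromatin and histone supply 1 of 4 was lower. Uhrf1, which guides maintenance DNA methylation behind the fork, was 62.1, 79.2, 143, 118 and 122 CPM in TC Vehicle and 4.28 to 80.1 CPM (median 17.3) at Endpoint (log2 fold change -2.01, SE 0.526, adjusted p = 0.0114). Chaf1b, a subunit of the CAF-1 histone chaperone, was 30.3, 29.1, 66.7, 45.4 and 39.2 CPM in Vehicle and 4.28 to 32.3 CPM (median 22.1) at Endpoint, a difference that did not pass the test (-1.03, adjusted p = 0.0944). Of the repair genes 2 of 3 were lower, Brca1 and the nuclease gene Exo1, and the uracil glycosylase gene Ung was not called. Brca1, of homologous recombination, was 18.6, 24, 36.8, 39.9 and 28.2 CPM in Vehicle and 6.61 to 29.7 CPM (median 9.61) at Endpoint (-1.25, SE 0.398, adjusted p = 0.0279). In both Uhrf1 and Brca1 the overlap came from 49843.

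**Figure D1:**
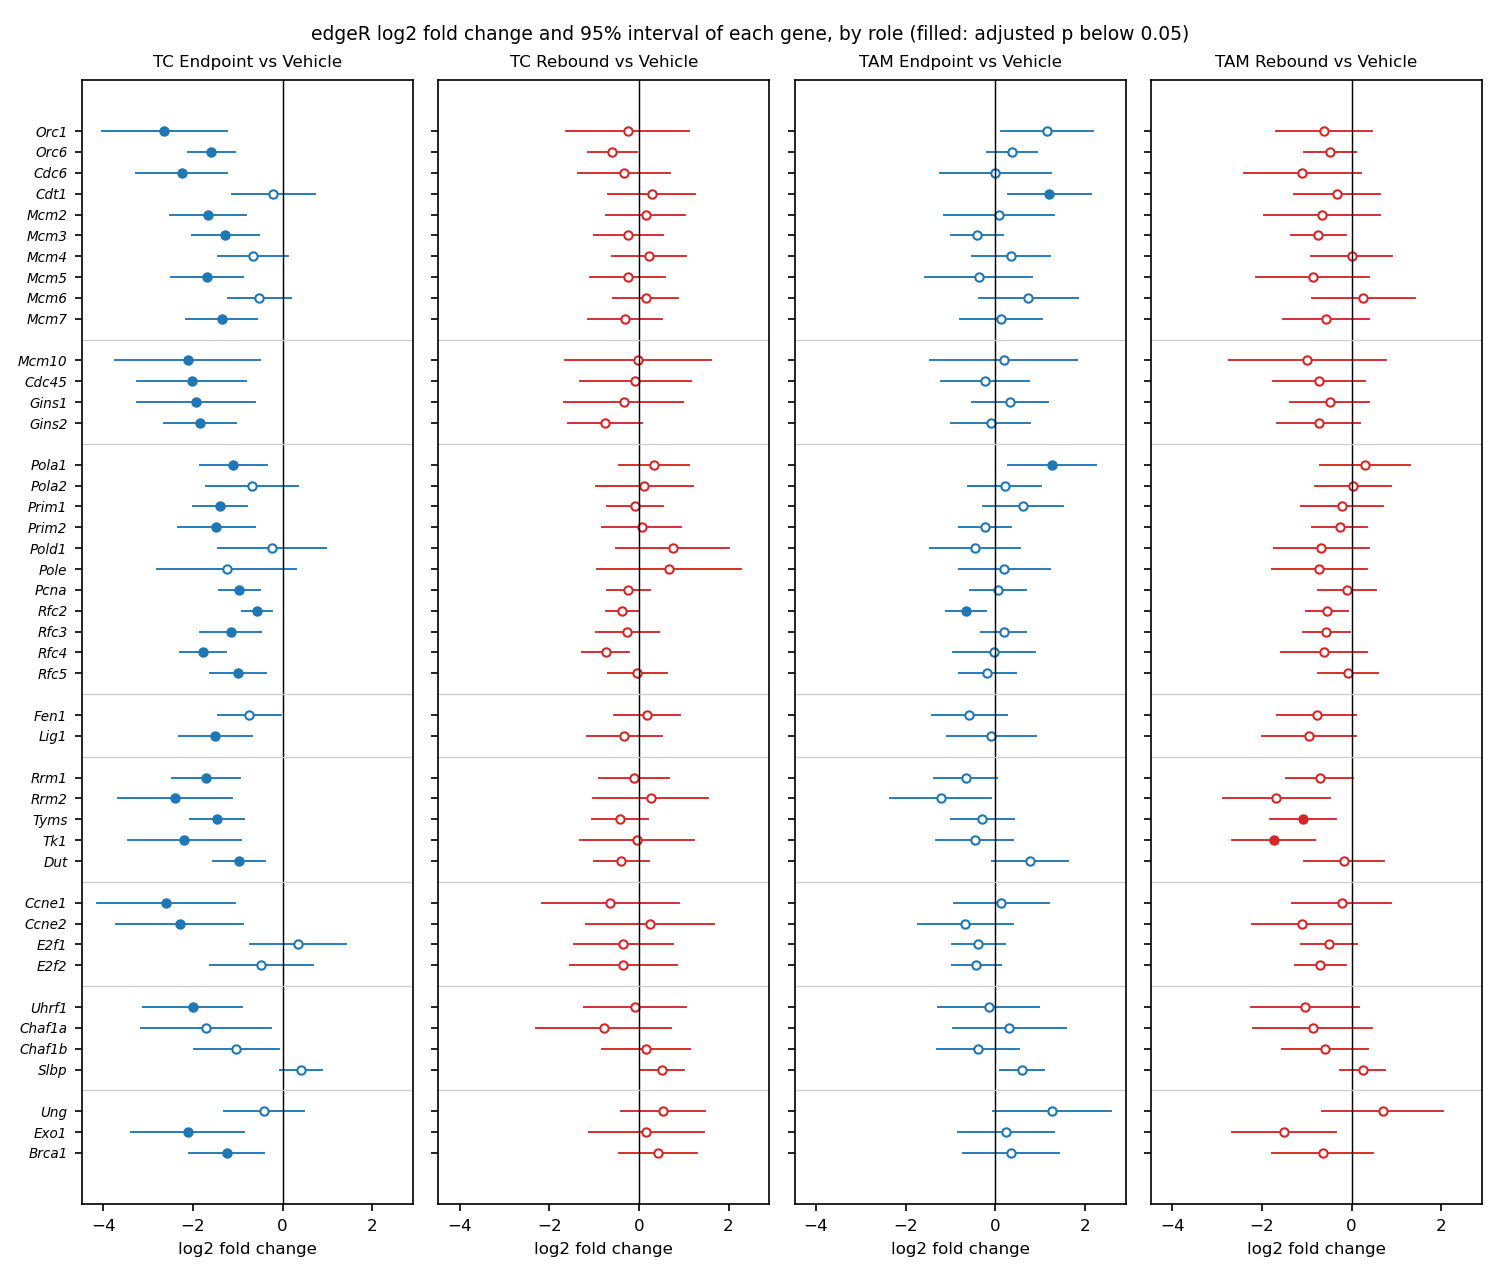
edgeR log2 fold change (x axis) of each of the 43 genes (rows, grouped by role) with its 95% interval, for Endpoint and Rebound against Vehicle in TC and TAM; filled points have an adjusted p below 0.05. In TC 30 points are filled to the left of 0 at Endpoint and 0 are filled at Rebound, and in TAM 3 are filled at Endpoint and 2 at Rebound.

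The 6 TC Endpoint libraries were not alike. The mean of log2(CPM + 1) over the 43 genes was 5.15 in 49843, 3.83 to 4.44 in the 4 with high T/NK marker levels and 3.29 in 49845, against 5.12 to 5.96 in TC Vehicle. Library 49843 had the highest Endpoint level in 33 of the 43 genes, and 25 of its 43 values lay within the Vehicle range. It carried tumour cell markers at 6.65 log2 CPM, the lowest choroid plexus and ependymal markers of the group (3.66) and T and NK markers at 0.85. It also had the highest myeloid markers of the 16 TC libraries (8.96 log2 CPM, against 6.21 to 7.81 in the other Endpoint ones) and the highest neutrophil markers (3.11). Their part in its levels was not tested. Library 49845 had the lowest level in 26 genes, lay below every Vehicle library in 39 of 43, and carried the highest choroid plexus and ependymal markers (7.60). Its Ttr, the transthyretin gene that choroid plexus expresses strongly, was 161859 CPM (scaled over both sorts). In each of the 4 libraries between them 29 to 34 of the 43 genes lay below every Vehicle library.

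Across TC Endpoint against Vehicle, 10 of 12 tumour cell and progenitor markers were called lower, 10 of 10 T and NK cell markers and 7 of 9 tested choroid plexus and ependymal markers were called higher, and 1 of 12 myeloid markers was called higher. The part of these cells in the fall of the replication genes was not tested. Leaving out the 4 Endpoint libraries high in T/NK markers, as well as TC Rebound 49827, kept 2 Endpoint libraries. Then 4 of the 43 genes were called lower, 3 of them among the 30, the median log2 fold change was -1.24, and 2.8% of all genes were called lower. Rfc4 (-1.46, adjusted p = 0.0231) and Orc6 (-1.68, adjusted p = 0.0171) were still called, while Rrm2 (-1.59, adjusted p = 0.212) and Pcna (-0.65, adjusted p = 0.236) were not. Without 49843 alone, 32 genes were called lower and the median was -1.65.

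**Figure D2:**
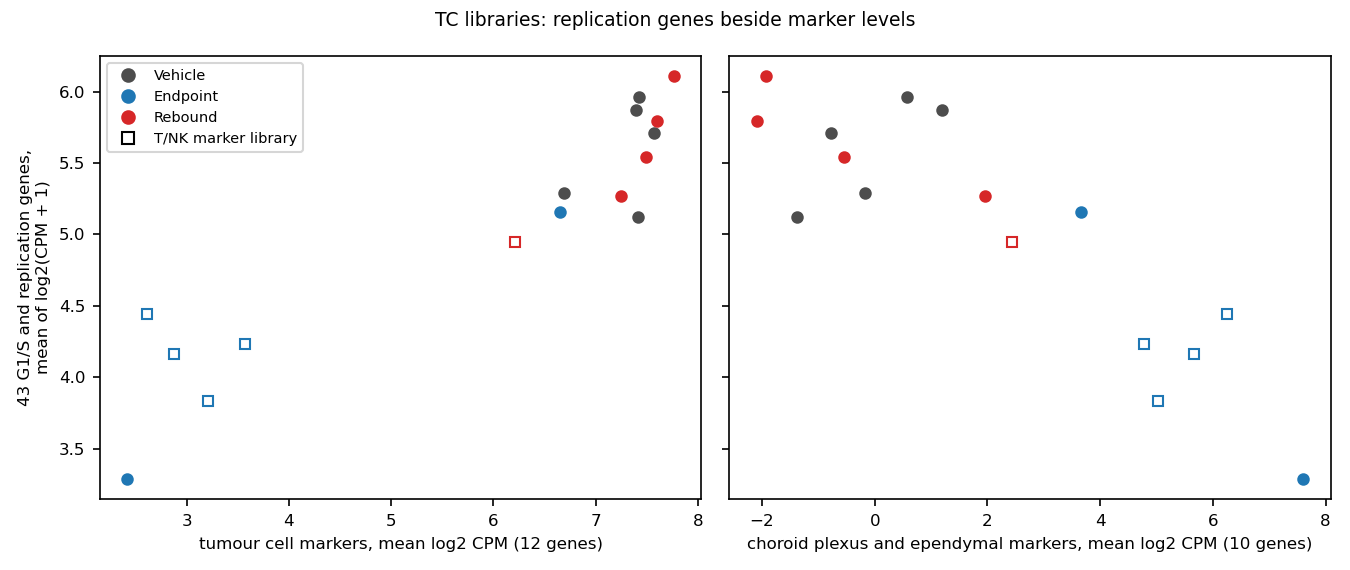
Mean of log2(CPM + 1) over the 43 genes (y axis) in each of the 16 TC libraries against the mean log2 CPM of tumour cell markers (left x axis) and of choroid plexus and ependymal markers (right x axis); open squares are libraries with T and NK cell markers above 2 log2 CPM. Endpoint libraries sit at 3.29 to 4.44 on the y axis except 49843 at 5.15, which also lies beside Vehicle and Rebound on the tumour marker axis.

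At Rebound no gene of the list could be told from Vehicle in TC. In TC Rebound against TC Vehicle 0 of the 43 genes were called by edgeR in either direction, where 0.04% of all genes tested (6 genes) were called higher and 0.0334% (5 genes) lower. At an unadjusted p below 0.05 there were 4 of the 43, beside 2243 of all 14985 genes. DESeq2 called 0 of the 43, with 2.39% and 1.86% of all genes called higher and lower. Without TC Rebound 49827, edgeR called 0 of the 43, but 142 genes in all were higher and 444 lower (0.933% and 2.92%). With the replicate block 0 of the 43 were called, beside 2.51% and 5% of all genes. The median log2 fold change was -0.09. The 95% interval lay within 1 log2 unit of 0 for 10 genes, and over the list the intervals reached from -2.29 to 2.27, so a missing call does not show equal levels. Every Rebound library lay below every Vehicle library for Rfc2 and Chaf1a (2.72% of all genes), named here after their values were seen, with log2 fold changes of -0.38 and -0.79.

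Against TC Endpoint, 25 of the 43 genes were higher in TC Rebound and 0 lower, with 13.6% of all genes called higher and 11.5% lower. The median log2 fold change was 1.08, and 42 of 43 estimates were positive, E2f1 (-0.69) being the exception. This comparison shares its Endpoint libraries with the one of Endpoint against Vehicle. Rrm2 reached 365, 461, 515, 138 and 625 CPM in the Rebound mice in the order 49041, 49059, 49692, 49827 and 49849 (log2 fold change 2.66, SE 0.603, adjusted p = 0.00611). Mouse 49827, the Rebound library with T and NK markers, was the low one, and it had the lowest level of the group in 27 of the 43 genes. Rrm1, the large subunit of the same reductase, was 28.9 to 172 CPM at Endpoint and 168 to 330 CPM at Rebound (1.60, SE 0.356, adjusted p = 0.00533). Prim1 was 74.5, 43.1, 64.3, 34.2 and 82.7 CPM (1.30, SE 0.283, adjusted p = 0.00478). Mcm2, of the MCM ring, rose from 9.33 to 66.8 CPM to 66.3 to 178 CPM (1.82, SE 0.405, adjusted p = 0.00538). In all 4 genes the groups overlapped.

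Of the licensing genes 7 of 10, and of the helicase activation genes 2 of 4, were called higher in TC Rebound than Endpoint. Over all genes tested 13.6% were. In the same order of mice, Mcm5 was 101, 118, 166, 90.0 and 223 CPM (log2 fold change against Endpoint 1.43, adjusted p = 0.0130), and Cdc6 was 26.1, 34.6, 42.9, 13.8 and 54.6 CPM (1.93, adjusted p = 0.00894). Cdc45 was 39.6, 43.4, 47.3, 10.7 and 45.7 CPM (1.95, adjusted p = 0.0214), with 49827 far below the other 4. Cdt1 was 24.2, 22.9, 24, 14.9 and 33.6 CPM, which overlapped Endpoint and was not called. Among the synthesis genes, Pola1 was 40.7, 54.1, 81.4, 40.9 and 74.7 CPM (1.44, adjusted p = 0.00903), above the Vehicle range in 3 of 5 mice. Pcna was 68.5, 77.7, 85.0, 74.6 and 116 CPM (0.74, adjusted p = 0.0211), and Tk1 was 31.6, 41.4, 53.0, 16.7 and 59.9 CPM (2.14, adjusted p = 0.0162).

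Of the cyclins, Ccne2 was higher at Rebound than at Endpoint, with 9.31, 24.4, 21.9, 6.98 and 34.0 CPM (log2 fold change 2.55, adjusted p = 0.0131). Ccne1, at 3.90, 6.72, 8.01, 4.22 and 12.8 CPM, lay above every Endpoint library but missed the threshold (1.96, adjusted p = 0.0550). Orc1 was the other gene of the 43 whose Rebound libraries all lay above Endpoint, a pattern of 6.84% of all genes. E2f1 was 3.02, 5.07, 6.09, 5.51 and 11.0 CPM and was not called. Uhrf1 was 86.1, 102, 106, 49.4 and 149 CPM (1.92, adjusted p = 0.0152), and Chaf1b at 22.3, 41.8, 53.7, 31.4 and 87.0 CPM was not called (adjusted p = 0.0602). Brca1 was 46.4, 35.2, 49.4, 16.5 and 50.8 CPM (1.67, adjusted p = 0.00771), above the highest Vehicle value of 39.9 in 3 mice.

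With the T/NK marker libraries left out, 4 of the 43 genes were called higher in TC Rebound than Endpoint, 2 of them among the 25, with a median of 1.31 and 5.69% of all genes called higher. Tumour cell markers moved in the direction of the replication genes, 10 of 12 being higher in Rebound than Endpoint, as did 5 of 7 pericyte and fibroblast markers. Choroid plexus and ependymal markers moved the other way, 7 of 9 tested being lower, as did 9 of 12 myeloid markers. Their part in the result was not tested.

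**Figure D3:**
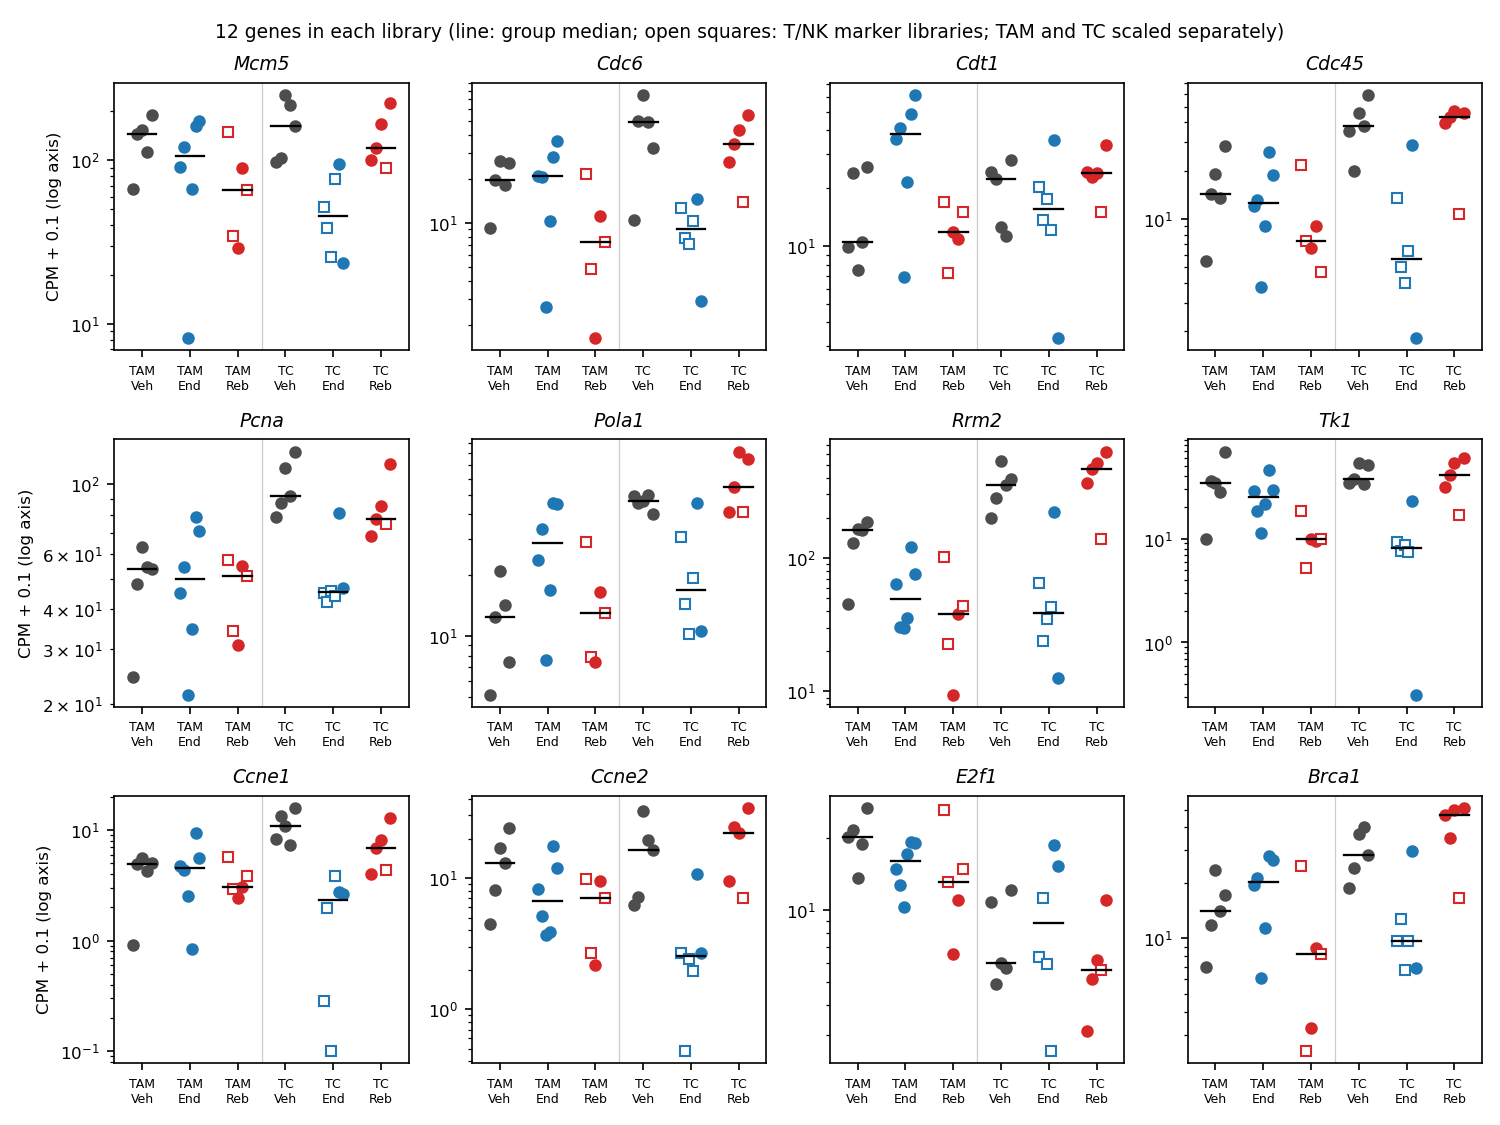
CPM plus 0.1 on a log axis for 12 of the genes in each of the 32 libraries, by sort and stage (x axis), with the group median as a line and open squares for libraries with T and NK markers; TAM and TC were scaled separately. In TC the Rrm2 median drops to 38.8 CPM at Endpoint and is higher again at Rebound, while Cdt1 and E2f1 overlap across the TC stages.

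In TAM libraries few of the same genes were called at Endpoint. Against TAM Vehicle, 2 of 43 genes were higher (Cdt1 and Pola1) and 1 lower (Rfc2), where 13.7% of all 13315 genes tested were called higher and 19.3% lower. Both shares of the list, 4.65% and 2.33%, lay under those of all genes. The median log2 fold change was 0.06, against -0.03 over all genes. Cdt1 was 9.74, 24, 7.40, 10.4 and 25.8 CPM in Vehicle and 6.82 to 61.0 CPM (median 38.4) at Endpoint (log2 fold change 1.21, SE 0.445, adjusted p = 0.0446). Pola1 was 5.02, 12.3, 20.9, 14.1 and 7.29 CPM in Vehicle and 7.53 to 45.1 CPM (median 28.7) at Endpoint (1.26, SE 0.469, adjusted p = 0.0468). For both the groups overlapped, and the lowest Endpoint value was that of mouse 49830. Rfc2, a clamp loader subunit, was 90.5, 106, 93.3, 100 and 141 CPM in Vehicle and 39.9 to 85.4 CPM (median 68.0) at Endpoint, with no overlap (-0.65, SE 0.214, adjusted p = 0.0252), a separation seen in 11% of all genes. With the mouse as a replicate block (limma-voom over all 32 libraries), 0 genes were higher and 2 lower.

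TAM Endpoint 49830 stood apart from the other 5. Its mean of log2(CPM + 1) over the 43 genes was 3.32, against 4.29 to 5.55, and it had the lowest level of the group in 40 of 43 genes. Mcm5 was 8.09 CPM there and 66.5 to 172 CPM in the others, and Mcm2 was 5.40 against 29.2 to 115 CPM. The mean of its mitotic genes was within the range of the group: 24 genes of G2 and mitosis averaged 5.22 against 4.88 to 5.61. The proliferation marker Mki67 was 161 CPM and the topoisomerase gene Top2a 138 CPM, both also within it, as were Plk1 (22.1 CPM) and Ccnb1 (35.8 CPM). Cdk1 was the lowest of the group, at 33.7 CPM against 38.0 to 74.0 CPM. Without this library 5 genes were called higher and 0 lower, and the median was 0.24. In TAM Vehicle, 54359 had the lowest level in 38 of 43 genes. Without it 0 genes were called higher, 1 lower, and the median was -0.11. Astrocyte markers were higher at Endpoint in 4 of 7 and myeloid markers lower in 7 of 12, and their part in these values was not tested.

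The genes followed by role had overlapping values at every TAM stage. Mcm5 was 66.7, 145, 152, 113 and 190 CPM in TAM Vehicle, 8.09 to 172 CPM (median 106) at Endpoint and 148, 34.4, 29.0, 89.4 and 65.6 CPM at Rebound (mice 49041, 49059, 49827, 49834 and 49849). Rrm2 was 45.4, 130, 163, 162 and 187 CPM in Vehicle, 29.5 to 120 CPM (median 49.3) at Endpoint and 102, 22.4, 9.35, 37.9 and 43.4 CPM at Rebound. Its log2 fold changes against Vehicle, -1.22 at Endpoint and -1.68 at Rebound, missed the threshold (adjusted p = 0.0882 and 0.0577). Cdc6 was 9.07 to 26.4 CPM in Vehicle, 2.56 to 36.4 CPM at Endpoint and 1.51 to 21.6 CPM at Rebound. Pcna lay between 21.3 and 78.6 CPM in all 16 TAM libraries, with log2 fold changes against Vehicle of 0.06 at Endpoint and -0.09 at Rebound. Across the 16 libraries E2f1 lay between 6.46 and 26.6 CPM, Ccne1 between 0.749 and 9.27 CPM and Ccne2 between 2.06 and 23.8 CPM. Cdc45 (3.69 to 28.3 CPM), Uhrf1 (7.38 to 95.6 CPM), Chaf1b (3.98 to 33.8 CPM) and Brca1 (2.35 to 27.8 CPM) varied as widely. None of these 11 genes was called between TAM stages.

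TAM Rebound had lower estimates than both other stages, with few calls. Against Vehicle, 0 genes were higher and 2 lower (7% and 7.73% of all genes), and 37 of 43 estimates were negative with a median of -0.62. Over all genes tested 6489 of 13315 were negative, with a median of 0.02. The share of the list called lower, 4.65%, lay under that of all genes. Tk1 was 9.74, 36.0, 34.1, 28.1 and 68.9 CPM in Vehicle, 11.2 to 45.9 CPM (median 25.1) at Endpoint and 18.5, 5.16, 9.90, 9.40 and 9.88 CPM at Rebound (log2 fold change against Vehicle -1.74, SE 0.441, adjusted p = 0.0151). Tyms was 21.6 to 61.3 CPM in Vehicle and 12.6 to 29.4 CPM at Rebound (-1.08, SE 0.353, adjusted p = 0.0461). With the replicate block Tk1 missed the threshold (-1.69, adjusted p = 0.0516). Tyms kept its call without TAM Vehicle 54359 or TAM Rebound 49041 and lost it without any other single library. Both enzymes make thymidine nucleotides, and in both the groups overlapped. Mcm3 was the 1 gene with every Rebound library below every Vehicle library (5.31% of all genes), without a call (-0.74, adjusted p = 0.0955). In the same comparison T and NK markers were higher in 6 of 9 tested, pericyte and fibroblast markers in 5 of 6 and tumour cell markers in 5 of 9, and myeloid markers were lower in 4 of 12. Their part in these values was not tested.

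Against TAM Endpoint, 6 genes were lower at Rebound and 0 higher (5.9% and 11.7% of all genes), and 41 of 43 estimates were negative with a median of -0.57. These were Orc1 (-1.77, adjusted p = 0.0210), Cdt1 (-1.54, adjusted p = 0.0253), Exo1 (-1.75, adjusted p = 0.0314), Orc6 (-0.86, adjusted p = 0.0331), Rfc3 and Tk1. Orc1 was 4.97 to 21.0 CPM (median 11.1) at Endpoint and 4.83, 1.41, 2.75, 5.15 and 3.77 CPM at Rebound. Its groups overlapped, as did those of all 43 genes. For Orc1 the overlap came from TAM Endpoint 49830 (4.97 CPM), the other Endpoint libraries lying at 8.62 to 21.0 CPM. In Exo1 and Cdt1 too the overlap came from that library. With the replicate block 0 of the 6 calls were left, as without TAM Rebound 49059 or without TAM Endpoint 49845, and the other single removals gave 2 to 9 calls.

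Without the TAM Rebound libraries with T and NK markers (49041, 49059 and 49849), 2 Rebound libraries were left. Then edgeR called 0 of 43 genes against either stage, and 1.63% of all genes were called lower against Vehicle and 0.767% against Endpoint. At an unadjusted p below 0.05 there were 11 of the 43 in each comparison. All genes at that level were not counted in this setting. With all libraries 8 of the 43 reached it in each comparison, beside 3942 of 13315 genes against Vehicle and 4184 against Endpoint. The median was -0.82 against Endpoint, with 43 of 43 estimates negative. Pericyte and fibroblast markers were higher in TAM Rebound than Endpoint in 5 of 6 tested, averaging -1.16 to 4.23 and -1.81 to 0.04 log2 CPM, as were 6 of 9 tested tumour cell markers. Their part in the result was not tested.

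Genes of G2 and mitosis formed a companion list of 24. At TAM Endpoint, 3 (12.5%) were higher than in Vehicle and 1 (4.17%) lower, both shares being under those of all genes (13.7% and 19.3%). Mki67 was called higher, at 88.6 to 202 CPM against 11.7 to 110 CPM (log2 fold change 1.25, SE 0.408, adjusted p = 0.0257). The 1 lower gene was the mitotic kinase gene Plk1 (-1.11, adjusted p = 0.0132). At Rebound, 22 of 24 were lower than at Endpoint and 19 of 24 lower than in Vehicle (5.9% and 7.73% of all genes), beside 6 and 2 of the 43 replication genes. For 17 of the 24 every Rebound library lay below every Endpoint library (4.87% of all genes), and for 0 of the 43. TAM Endpoint 49830, the lowest of its group in 40 of the 43 genes, enters that 0. Plk1 was 18.4 to 41.5 CPM at Endpoint and 5.48, 5.75, 10.2, 6.06 and 7.77 CPM at Rebound. With the T/NK marker libraries left out, 7 of the 24 were called lower than at Endpoint and 6 lower than in Vehicle (0.767% and 1.63% of all genes). With the replicate block these counts were 9 and 10 (2.43% and 4.93% of all genes). The difference between the lists was not tested. In TC, 19 of 24 were lower at Endpoint than in Vehicle and 22 of 24 higher at Rebound than at Endpoint (14.8% and 13.6% of all genes). Without the T/NK marker libraries these TC counts were 4 and 7 (2.8% and 5.69% of all genes). Between TC Rebound and Vehicle edgeR called 0, with 0 at an unadjusted p below 0.05, beside 2243 of all 14985 genes.

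**Figure D4:**
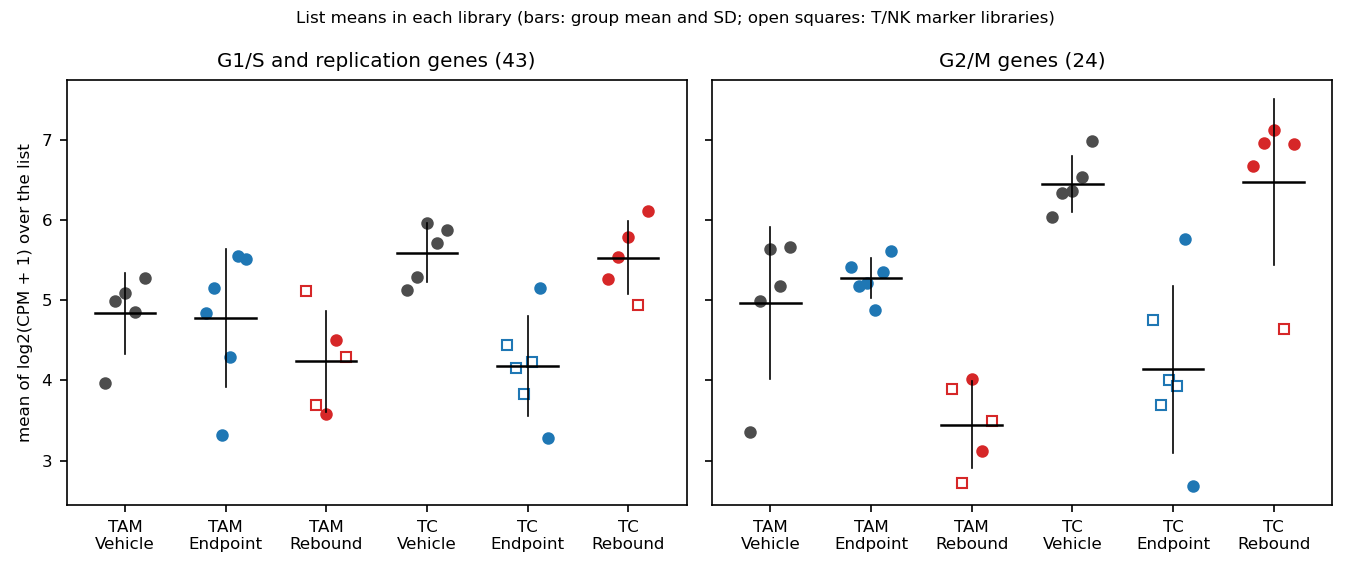
Mean of log2(CPM + 1) over the 43 genes (left) and over 24 G2/M genes (right) in each library, by sort and stage (x axis), with group mean and SD as bars and open squares for libraries with T and NK markers; TAM and TC were scaled separately. TAM Rebound spans 3.58 to 5.12 for the 43 genes, inside the Endpoint range of 3.32 to 5.55. The lowest Endpoint value there is that of 49830, and the others lie at 4.29 to 5.55. For the G2/M genes TAM Rebound spans 2.72 to 4.02, below every Endpoint library (4.88 to 5.61).

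The sorts were then compared within each stage, in a fit over all 32 libraries. In Vehicle, 6 of the 43 genes were higher in TAM than TC and 5 lower (25.6% and 29.2% of all 15668 genes). E2f1 was higher in TAM by 1.97 on the log2 scale (25.5 ± 5.5 against 6.5 ± 2.7 CPM, SD, n = 5 each, adjusted p = 0.000261), and Mcm3 by 1.51 (352 ± 43.7 against 124 ± 51.5 CPM, adjusted p = 0.000603). Orc6 (-1.55, adjusted p = 2.34e-05), Prim1 (-1.32, adjusted p = 0.00586) and Dut, which keeps uracil out of DNA (-2.23, adjusted p = 1.65e-05), were lower. At Endpoint, 24 were higher in TAM and 0 lower (18.7% and 32.4% of all genes), with Mcm3 (2.29, adjusted p = 1.81e-06), Orc1 (3.38, adjusted p = 3.87e-05) and the GINS subunit gene Gins2 (1.77, adjusted p = 0.000547) at the smallest adjusted p. At Rebound, 2 were higher, E2f1 (1.77) and Mcm3 (0.95), and 13 lower (20.4% and 27.4% of all genes), among them Orc6 (-1.50, adjusted p = 4.97e-05), Dut (-2.06) and Rrm2 (-2.74, adjusted p = 0.000766). E2f1 was also called higher in TAM at Endpoint (1.14, adjusted p = 0.0139). With the T/NK marker libraries left out it missed the threshold at Endpoint (0.38, adjusted p = 0.505) and at Rebound (0.99, adjusted p = 0.0814). The Mcm3 call at Rebound (adjusted p = 0.0250) was lost in the same setting, with the mouse as a replicate block, and without TAM Rebound 49041 or 49834 or TC Rebound 49041 or 49827, with adjusted p up to 0.236. Without the T/NK marker libraries the counts were 5 higher and 0 lower at Endpoint (15.4% and 27.1% of all genes) and 0 and 10 at Rebound (17.2% and 18.2%). With the mouse as a replicate block they were 24 and 1 at Endpoint (20% and 28.4% of all genes) and 1 and 12 at Rebound (18.7% and 22.6%).

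Whether the stage change differed between the sorts was tested directly. For Endpoint against Vehicle, 12 genes had a higher change in TAM than in TC and 0 a lower one (8.73% and 17% of all genes), led by Orc6 (difference of 1.86 on the log2 scale, SE 0.369, adjusted p = 0.000624), Orc1 (3.70, SE 0.844, adjusted p = 0.00213) and Pola1 (2.25, SE 0.611, adjusted p = 0.00775). Pola1 was called in both sorts in opposite directions, lower in TC and higher in TAM. The TC call was lost under 5 of 17 alternatives and the TAM call under 10 of 17. The difference between sorts for Pola1 missed the threshold in edgeR without the T/NK marker libraries (adjusted p = 0.0873). Without TC Endpoint 49843 the count was 28 (13.8% of all genes), and with the T/NK marker libraries left out, 2 genes had a higher and 1 a lower change (3.92% and 10.8% of all genes). For Rebound against Endpoint, 27 genes had a lower change in TAM and 0 a higher one (7.18% and 13.4% of all genes), with Orc6 at -1.81 (adjusted p = 0.00117), Orc1 at -4.11 (adjusted p = 0.00130) and Exo1 at -4.00 (adjusted p = 0.00162). With the T/NK marker libraries left out, 8 had a lower change (3.3% of all genes). For Rebound against Vehicle, edgeR called 0 of 43 (0.319% higher and 0.198% lower among all genes). At an unadjusted p below 0.05 there were 2 of the 43, beside 2169 of all 15668 genes. DESeq2 called 0 of 43 (1.69% and 0.872% of all genes), and so did edgeR without TC Rebound 49827 (2.85% and 0.955%).

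Other genes of the pathway, in 4 further lists that hold none of the 43, are given by count. They are given with all libraries only, those with T and NK markers included. The shares over all genes tested were 14.8% lower and 14% higher in TC Endpoint against Vehicle, 13.6% higher and 11.5% lower in TC Rebound against Endpoint, and 13.7% higher and 19.3% lower in TAM Endpoint against Vehicle. Of 33 tested replication factors (34 listed), 10 were lower and 0 higher in TC Endpoint than Vehicle, among them the clamp loader gene Chtf18 (-2.71 on the log2 scale, adjusted p = 0.00125), and 8 were higher and 1 lower in TC Rebound than Endpoint. In TAM Endpoint, 6 (18.2%) were higher and 2 (6.06%) lower than in Vehicle, the first share being near that of all genes, with Atad5, which unloads the clamp, higher by 2.03 (adjusted p = 0.00125). Of 20 genes of S phase repair and chromatin, 9 were lower and 0 higher in TC Endpoint, and 6 were higher and 0 lower in TAM Endpoint, among them the recombination gene Brca2 (1.90). The 16 further genes of nucleotide supply had 9 lower and 3 higher in TC Endpoint. Shmt1, of folate metabolism, fell by 2.40, and Samhd1, which degrades deoxynucleotides, was higher by 2.61.

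Of 27 RB and E2F regulators, 11 were lower and 3 higher in TC Endpoint than Vehicle. Ccnd1, cyclin D1, was 1113 to 2994 CPM in TC Vehicle, 24.2 to 311 CPM at Endpoint and 163 to 2612 CPM at Rebound (-4.52 for Endpoint against Vehicle, adjusted p = 0.00193). Cdk4, its kinase, fell by 1.74, while Cdk6, another partner of cyclin D, rose by 3.25 in the same comparison (adjusted p = 0.0399). The part of T, NK and other cells in the changes of these 4 lists was not tested. In TAM Endpoint, 6 of the 27 (22.2%) were higher and 5 (18.5%) lower than in Vehicle, against 13.7% and 19.3% of all genes. Myc, a driver of growth, was 78.8 to 163 CPM in TAM Vehicle and 2.65 to 9.59 CPM at Endpoint (-4.44, adjusted p = 3.45e-05), and Cdkn1a, a CDK inhibitor, fell by 2.46. Both were higher again at Rebound than at Endpoint, by 3.39 and 1.75. In TC Rebound against Vehicle 0 genes of these 4 lists were called by edgeR. At an unadjusted p below 0.05 there were 2 to 4 genes of each list, beside 2243 of all 14985 genes.

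Among the 35 genes with a promoter window, E2F-type matches were found in 9 of the 24 called lower in TC Endpoint and in 4 of the 11 not called. Rrm2, shown above without a match, fell by 2.39 on the log2 scale. Mcm5, with 2 matches, fell by 1.69, and Mcm6, with 3, had a fold change of -0.52 that was not called (adjusted p = 0.255).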

How the data were processed

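RNA of sorted TAM and TC libraries was sequenced as paired reads of 50 bases after a SMART-Seq preparation, which keeps no strand, so overlapping and antisense genes cannot be separated, per the labels' protocols. The authors deposited raw counts per gene symbol, 1 column per library. STAR 2.3.0e, SAMtools and mm10 are listed per the submitters' processing notes. The counting program and its annotation were not given in the sources used here. Endpoint and Rebound counts are all even. The treatment of a library was read from its stage, since the agent is given as BLZ945 for Vehicle libraries too.

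Counts were fitted with edgeR 4.0.16 (R 4.3.3; filterByExpr with a minimum count of 10, TMM scaling, robust quasi-likelihood test) within each sort for stages, and over all 32 libraries for TAM against TC and for differences between sorts. P-values were adjusted over all genes of a fit (Benjamini-Hochberg, threshold 0.05). CPM are after TMM scaling. RPKM divide them by the merged exon length in GENCODE M21, which also gave the gene types. Log2 CPM of marker lists used a prior count of 2. The test was checked on simulated data. Alternatives were DESeq2 1.42.0, RLE scaling, no filter, halved BLZ945 counts, the mouse as a replicate block (limma 3.58.1 for stages, edgeR for sorts), each library left out and, chosen after seeing the data, leaving out the libraries with T and NK markers above 2 log2 CPM.

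The pairing is by mouse: 15 of 17 mice gave both sorts. Deviations of 2 libraries of a mouse from their group means correlated with a median r of 0.066 (15 pairs, 0.011 to 0.337), against -0.020 for different mice. No libraries of a group agreed within sampling noise (lowest chi-square per degree of freedom 21.0).

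The genes and the companion and marker lists were chosen with earlier results of these data known. Named were 14 genes standing for the roles whatever they did, up to 4 called genes per direction in a stage comparison and up to 3 in the others and in the companion lists by smallest adjusted p, and genes that were the 1 call or went against the majority. Depth and the small groups limit the precision, and intervals cover 95%.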

Additional observations from a re-analysis of the deposited data

Results flagged for a closer look

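In 9 of 138 tests over groups (23 genes in 6 groups), 1 library lay far from the others of its group, and chance alone flags about 1 in 20. Of the 9, 6 were TC Endpoint 49843, the highest of its group. Its levels were 44.5 CPM for Prim1 (others 16.8 to 25.4), 222 CPM for Rrm2 (12.4 to 64.5), 81.1 CPM for Pcna (42.2 to 46.7), 10.6 CPM for Ccne2 (0.379 to 2.59), 80.1 CPM for Uhrf1 (4.28 to 25.1) and 29.7 CPM for Brca1 (6.61 to 12.7). In TC Rebound 49827, the library with T and NK markers, Cdc45 was 10.7 CPM (39.6 to 47.3 in the others). In TAM Rebound 49041 Cdc45 was 21.6 CPM (4.55 to 9.02 in the others), and in TAM Vehicle 54359 Ccne1 was 0.820 CPM (4.20 to 5.50 in the others).

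Other genes drew attention because the stage change differed between the sorts by the test of that difference in edgeR. For Endpoint against Vehicle the change in TAM minus that in TC was 1.86 on the log2 scale for Orc6, 3.70 for Orc1, 2.25 for Pola1, 2.62 for Ccne1 (adjusted p = 0.0318) and 2.17 for Cdc6 (adjusted p = 0.0414). For Rebound against Endpoint it was negative throughout, at -1.81 for Orc6, -4.11 for Orc1 and -4.00 for Exo1 among the licensing and repair genes. In the same comparison it was -3.39 for Tk1, -2.35 for Pola1, -2.62 for Brca1, -2.98 for Cdc6 and -3.07 for Rrm2. It was -2.78 for Uhrf1, -2.95 for Ccne2, -2.004 for Cdt1 and -2.40 for Cdc45, with adjusted p up to 0.0288. With the replicate block (mouse) Cdc6 for Endpoint against Vehicle (1.73, adjusted p = 0.108) and Cdt1 for Rebound against Endpoint (-1.89, adjusted p = 0.0921) missed the threshold. With the T/NK marker libraries left out, Pola1, Ccne1 and Cdc6 missed it for Endpoint against Vehicle. Tk1, Pola1, Uhrf1, Ccne2, Cdt1 and Cdc45 missed it in that setting for Rebound against Endpoint.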

How the results depend on the processing

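Of 84 calls on named genes, 24 stayed past the threshold under every alternative run for them, 60 were lost under at least 1, and 0 changed sign. Leaving out the libraries with T and NK markers, chosen after seeing the data, changed most. Lower counts became 4 for TC Endpoint against Vehicle, 0 for TAM Rebound against Vehicle and 0 for TAM Rebound against Endpoint, and the higher count of TC Rebound against Endpoint became 4. TAM above TC became 5 at Endpoint and 0 at Rebound. The difference between sorts became 2 higher and 1 lower for Endpoint against Vehicle and 8 lower for Rebound against Endpoint. That setting leaves 2 libraries in TC Endpoint and in TAM Rebound.

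With the replicate block (mouse), TAM Endpoint against Vehicle had 0 higher and 2 lower, TAM Rebound against Endpoint 0 lower, TAM against TC 1 lower at Endpoint and 1 higher at Rebound. The block moved no other count by over 1.5 times, though single calls were lost within them, such as that of Tk1 in TAM Rebound against Vehicle. Without the filter TAM Endpoint had 0 higher and TAM Rebound 1 lower than Vehicle, and with DESeq2 they had 2 and 4 lower. The cause was not tested. RLE scaling and halved counts moved no count of the list by over 1.5 times.

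Leaving out 1 library gave 0 to 5 higher and 0 to 2 lower for TAM Endpoint against Vehicle, 1 to 4 lower for TAM Rebound against Vehicle and 0 to 9 lower for TAM Rebound against Endpoint. Each TAM Vehicle and TAM Rebound library moved the count of TAM Rebound against Vehicle, which was 4 without TAM Vehicle 54359 or TAM Rebound 49041 and 1 without any other. For TAM Endpoint against Vehicle no gene was higher without TAM Vehicle 54359 or 57682 or TAM Endpoint 49823, 49825, 49843 or 49845. Leaving out 1 library gave 26 to 32 lower for TC Endpoint against Vehicle and 18 to 30 higher for TC Rebound against Endpoint. TAM against TC at Rebound ranged from 1 to 3 higher and 8 to 18 lower, with 8 lower without TAM Rebound 49059, 49827 or 49849 or TC Rebound 49692 or 49849. The difference between sorts ranged from 7 (without TAM Endpoint 49843) to 28 higher for Endpoint against Vehicle. It ranged from 14 (without TAM Rebound 49059) to 31 lower for Rebound against Endpoint, with 17 without TAM Endpoint 49845 or TC Rebound 49849. TC Endpoint was the shallowest group. The interval was widest for Mcm10 in every comparison, at 3.23 log2 units in TC Endpoint against Vehicle and 3.26 in TC Rebound against Vehicle.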

Other observations

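Against the stages, the nucleotide genes outside the list of 43 did not move as 1 block in TC. The values are from all libraries, and the part of T, NK and other cells in them was not tested. At Endpoint against Vehicle, besides Samhd1, the mitochondrial thymidine kinase gene Tk2 was higher by 1.59 on the log2 scale and the p53-regulated reductase subunit gene Rrm2b by 1.36, while Nme1, a nucleoside diphosphate kinase gene, fell by 1.21 and Impdh2, of guanine nucleotide synthesis, fell by 1.33. At Rebound against Endpoint, which shares the Endpoint libraries, Tk2 was lower (-1.34) and Cad and Ctps, of pyrimidine synthesis, were higher by 1.65 and 1.62. In TAM Endpoint against Vehicle Cad (-1.15), the purine synthesis gene Gart (-0.92) and Umps (-0.95) were lower.

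In TAM the CDK inhibitor genes did not all move in 1 direction, and a cyclin gene is given beside them. At Endpoint against Vehicle the CDK inhibitor genes Cdkn1b and Cdkn2c were higher by 1.44 and 1.25 while Cdkn1a was lower (-2.46), and the cyclin gene Ccnd2 was lower (-2.22). At Rebound against Endpoint Ccnd2 was higher by 3.35 and Cdkn2c lower (-1.54).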
